A study of Mus musculus with 21 samples.

Results

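MYC, MAX and their partner proteins form a network of transcription factors of the basic helix-loop-helix leucine zipper class. MYC and MYCN bind DNA as dimers with MAX and activate genes of ribosome production, nucleotide and amino acid metabolism and cell division. The MXD proteins, MXI1 and MNT compete with MYC for MAX and recruit SIN3 and histone deacetylases to repress the same kind of genes, MGA joins MAX to the repressor complex PRC1.6, and MLX serves the glucose-sensing factors MLXIP and MLXIPL as MAX serves MYC. In hematopoietic stem cells (HSCs), this balance is known for its part in the choice between self-renewal and differentiation.

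The data described here are the transcript counts of 10 genes of this network, Myc, Mycn, Max, Mxi1, Mxd1, Mxd3, Mxd4, Mnt, Mga and Mlx, chosen by name as rows of a table of 21000 gene symbols, and all 10 were found. RNA sequencing was performed on wild-type mouse HSCs sorted as CD150+CD48- cells of the Lineage-Sca-1+c-Kit+ gate, in 21 libraries, 3 for each of 7 groups. The mice were 10 weeks old and received phosphate-buffered saline (PBS) or 5-fluorouracil (5-FU), an antimetabolite that kills dividing blood progenitors and is known to bring HSCs into division, by intraperitoneal injection of 150 mg/kg. PBS or 5-FU was given once or 3 times at intervals of 21 days and HSCs were isolated at day 6, which is 5 days after the last administration, and 5-FU-treated mice of both schedules were also sampled at day 21. The last group was untreated and 2 years old. Each library was made from 3000 to 3500 cells, so that the values are averages over a sorted population, in which fewer cells of a type and less RNA per cell cannot be told apart.

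For 5-FU-treated mice at day 6 c-Kit-dim cells were also taken into the gate and Mac-1 was dropped from the lineage stain, so treatment and gate changed together and cannot be told apart in the day 6 comparisons. The 21 libraries held between 22184885 and 38649033 counts, and 3 counts, taken as the floor of a library, corresponded to at most 0.135 CPM (the count of a gene divided by the total of its library in units of 1000000 counts). The columns of the 6 day 6 libraries of the single schedule (PBS once, 5-FU once) have a suffix that the others lack, and its meaning is not stated. The summed level of 8 HSC markers was 2727 to 4462 normalized CPM over the 21 libraries. Summed levels were 52.6 to 121 for 8 myeloid, 13.7 to 71.6 for 5 erythroid, 34.1 to 143 for 5 megakaryocyte, 0 to 9.06 for 6 lymphoid and 0.0621 to 83.4 for 4 stromal and endothelial markers. Rag1 was the marker at 0 in all 21 libraries. The proteins of the network were not measured.

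The dimers of this network bind the E-box, CACGTG, a sequence that reads the same on both strands. Among the 9 members with a promoter in the RefSeq table (GRCm38.p6; 250 bases before to 50 bases after each start site, 11 promoters in all), 4 promoters held this hexamer, against 2349 of all 32851 promoters of the same length (7.15%). The windows of 30 bases around these sites are shown because they are the letters of the network's own binding site in its own genes, with the E-box in capitals and 5′ to 3′ on the strand of the gene.
Max: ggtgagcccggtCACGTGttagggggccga
Mlx: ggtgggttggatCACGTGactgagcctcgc
Mnt: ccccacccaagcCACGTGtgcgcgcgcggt
Mxd4: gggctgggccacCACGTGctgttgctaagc
The windows lie at chr12:76962234-76962263 on the minus strand for Max, chr11:101087238-101087267 on the plus strand for Mlx, chr11:74830789-74830818 on the plus strand for Mnt and chr5:34187912-34187941 on the minus strand for Mxd4. The first base of the E-box stood at −3, −40, −123 and −219 from the start site, for Max, Mlx, Mnt and Mxd4. The promoters of Mycn, Mxd1, Mxd3, Mga and the 3 of Mxi1 held no CACGTG, which says only that these letters are not in these windows. Binding was not measured.

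The members differed widely in level, and one property of the counts limits how levels can be compared. Among the 12780 genes with 1 RefSeq transcript, 22 (0.172%) had more than 2 counts per base of their longest transcript on average, against 933 of the 8220 genes with 2 or more transcripts (11.4%). Among genes with 0.3 to 1 counts per base, the counts of the first class also followed the library total less closely. The median slope of log2 count on log2 total over the 21 libraries was 0.593 for 1324 genes with 1 transcript and 0.933 for 1991 genes with 2 or more. Above 1 count per base the slopes were 0.717 and 1.02, and at 0.1 to 0.3 they were 0.758 and 0.862. The order was the reverse at 0.03 to 0.1 (0.805 and 0.736) and at up to 0.03 (0.754 and 0.652). Mycn had 0.744 counts per base, Mxd1 0.145, Mxd3 0.0922, Mnt 0.0408 and Mxd4 0.0367. A slope of 1 is what a count in proportion to the total would give. Mycn, Mxd1, Mxd3, Mxd4 and Mnt belong to the first class and Myc, Max, Mxi1, Mlx and Mga to the second, and the cause of this difference between the classes was not tested. Levels are therefore set side by side only within a class, as normalized CPM per kilobase of the longest transcript.

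Among the members with 2 or more RefSeq transcripts, Myc was the highest, at 437 ± 44.4 CPM per kilobase (SD, n = 21 libraries of all groups). Max, the shared partner, followed at 84.3 ± 9.40 and Mxi1, a repressor that competes for MAX, at 59.3 ± 10.3 CPM per kilobase. Mlx stood at 42.1 ± 3.87 and Mga at 10.7 ± 1.92 CPM per kilobase, and over the 21 libraries the lowest Myc and the highest Mga stood clear of the other members of the class. Neighbours between them overlapped, Max (67.0 to 103) with Mxi1 (38.1 to 78.2) and Mxi1 with Mlx (35.6 to 50.5). Among the members with 1 transcript, Mycn stood at 26.2 ± 3.07 CPM per kilobase, above Mxd1 (5.08 ± 1.01), Mxd3 (3.19 ± 0.729), Mnt (1.40 ± 0.282) and Mxd4 (1.29 ± 0.290), and the ranges of Mxd1 and Mxd3, of Mxd3 and Mnt, and of Mnt and Mxd4 overlapped. Mycl, the remaining MYC gene, had 0 counts in all 21 libraries, which allows at most the floor of 3 counts in each, and Mlxipl had 0 to 68 counts per library.

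**Figure D1:**
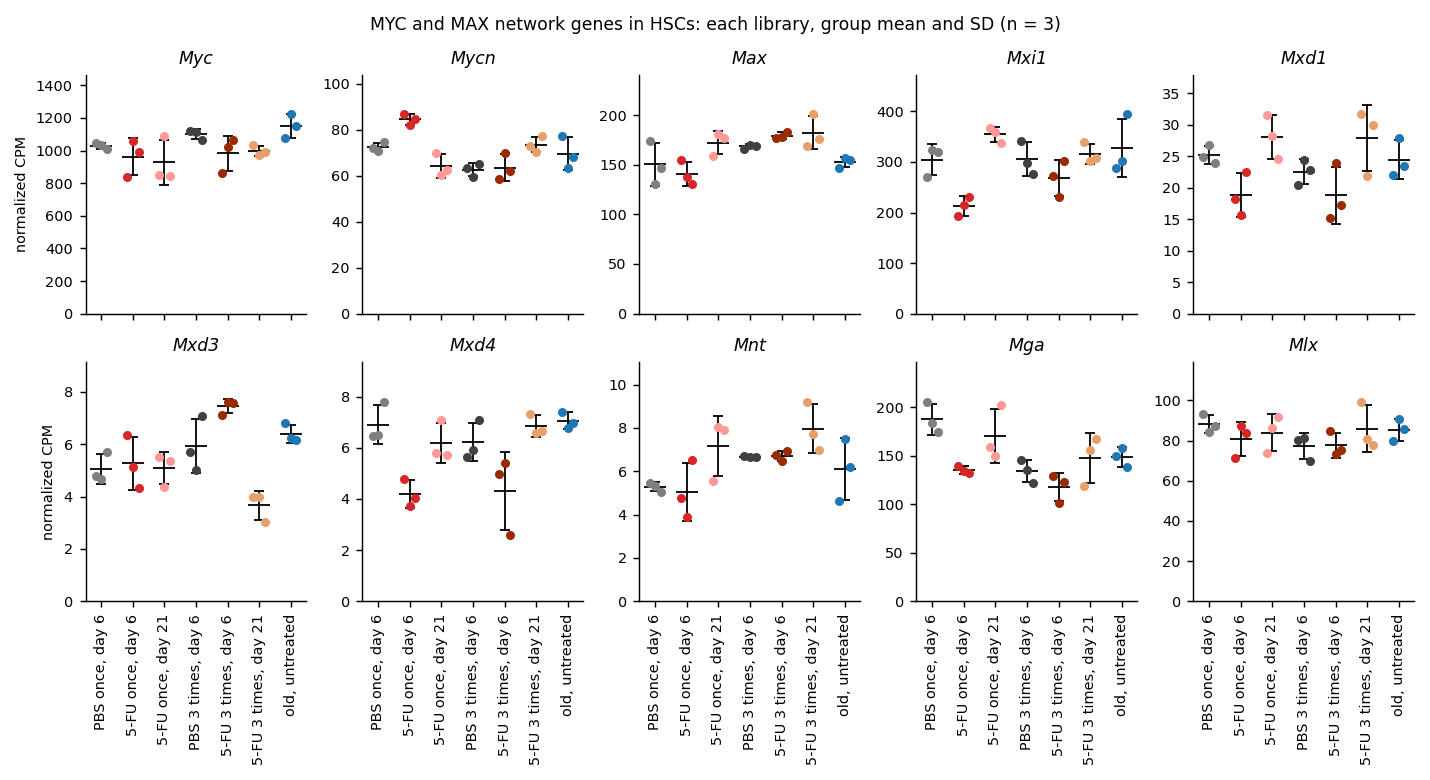
Normalized CPM (linear axis from 0, a scale of its own in each panel) of the 10 members in every library, by group; points are libraries and the black line and bars are the group mean and SD (n = 3). Mxi1 and Mga were lower at day 6 after 5-FU once than after PBS once, with no overlap, while the points of Myc overlapped.

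The genes lie on GRCm38, with positions from GENCODE vM21. Myc lies at chr15:61985391-61990374, Mycn at chr12:12936093-12941914, Max at chr12:76937269-76962201, Mxi1 at chr19:53310518-53375810, Mxd1 at chr6:86647042-86669161, Mxd3 at chr13:55325168-55329823, Mxd4 at chr5:34173883-34187720, Mnt at chr11:74830920-74845725, Mga at chr2:119897228-119969581 and Mlx at chr11:101087277-101092207. Of the exonic bases of Mlx, 19.3% also belong to Psmc3ip on the other strand. The shares were 6.06% for Mxd4 (Gm42846), 4.43% for Mxd3 (Prelid1) and 2.84% for Mxi1 (Gm10197), and since the use of strand in counting is not stated, reads of these stretches cannot be assigned to either gene with certainty.

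The comparison at day 6 after a single administration sets HSCs of 5-FU-treated mice, sorted with the widened gate, against HSCs of PBS-treated mice. The cell cycle itself was not measured in these libraries. Of the 10 members, 3 fell and 0 rose: Mxi1, Mga and Mxd4. They are partners of MAX that act as repressors, as are Mxd1, Mxd3 and Mnt, which did not pass. The groups of Mxi1, Mga and Mxd4 did not overlap, nor did those of Mxd1, which was lower, and Mycn, which was higher. The share of all genes with groups that did not overlap is not given here. At an unadjusted p under 0.05 by edgeR there were 5 members, and 4798 of the 12759 genes tested. Over all 12759 genes tested, 10.6% fell and 11.5% rose at an adjusted p under 0.05 (edgeR, quasi-likelihood F test, p-values adjusted by Benjamini-Hochberg across the tested genes). The median log2 fold change was −0.12 over the 10 members and −0.00056 over all genes tested. Each comparison with PBS once as its reference shares the same 3 control libraries.

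Mxi1 had 270.4, 324 and 320 normalized CPM in the libraries of PBS-treated HSCs and 192, 214.5 and 231 in those of 5-FU-treated HSCs. All 3 libraries after 5-FU lay below all 3 after PBS. The log2 fold change was −0.53 (SE 0.10, edgeR adjusted p = 0.0119), with a mean normalized CPM that fell by 30.2%, and it passed the threshold in all 14 alternatives, with adjusted p between 7.19e-06 and 0.0419. Mga had 205, 183 and 174 normalized CPM after PBS and 139.8, 134 and 132 after 5-FU, again with no overlap. Its log2 fold change was −0.48 (SE 0.08, edgeR adjusted p = 0.00721), with adjusted p between 8.28e-08 and 0.0294 over the 14 alternatives, all past the threshold. The levels of Mga in the control groups are given with the comparison of those groups.

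Mxd4 is a scarcer member of the MXD family, which is associated with cells that leave the cycle. It had 174, 174 and 182 counts in the PBS libraries and 114, 101 and 105 counts after 5-FU, or 6.45 to 7.79 against 3.74 to 4.79 normalized CPM. The log2 fold change was −0.73 (SE 0.20, edgeR adjusted p = 0.0369). This call did not hold with any of the 3 PBS libraries left out, or without the second or the third library of 5-FU-treated HSCs, with adjusted p up to 0.101 and log2 fold changes of −0.78 to −0.64 in those 5 fits.

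Mxd1, which is known to rise as blood cells mature, had 24.9, 26.8 and 23.9 normalized CPM after PBS and 18.2, 15.6 and 22.5 after 5-FU, with no overlap. The log2 fold change was −0.43 (SE 0.14, edgeR adjusted p = 0.0633), short of the threshold. It passed with DESeq2 (adjusted p = 0.0377), without the third library after 5-FU (adjusted p = 0.0255) and when genes with 1 RefSeq transcript were normalized and tested apart from the others (adjusted p = 0.022). Mxd3, a family member linked to dividing cells, and Mnt, the broadly expressed antagonist of MYC, had log2 fold changes of 0.05 (95% interval −0.47 to 0.57) and −0.07 (−0.63 to 0.49) and overlapping groups, at counts of 105 to 170 per library.

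The activators and the shared partners did not pass the test. Myc had 1045, 1031 and 1011 normalized CPM after PBS and 836, 1059.5 and 993 after 5-FU, so that a library after 5-FU exceeded all 3 controls. The log2 fold change of Myc was −0.10 (95% interval −0.31 to 0.10, edgeR adjusted p = 0.433). Max had 174, 130.1 and 147 against 154, 137 and 131 normalized CPM, with a log2 fold change of −0.10 (95% interval −0.38 to 0.18), and the value for Mlx was −0.13 (−0.36 to 0.09). The groups of Max and of Mlx overlapped.

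Mycn moved the other way. Its deposited counts were 1946, 1903 and 1741 after PBS and 2064, 2215 and 2218 after 5-FU, or 71.0 to 74.5 against 82.0 to 86.7 normalized CPM, with no overlap. The log2 fold change was 0.21 (SE 0.07, edgeR adjusted p = 0.0553), and it passed with DESeq2 (adjusted p = 0.0101) and within its transcript class (adjusted p = 0.00834). Over all 21 libraries the counts of Mycn stayed between 1741 and 2218, with a coefficient of variation of 7.29%, while the library totals varied by 16.3%. Only 50 of the 3354 genes with a mean of 1000 to 4000 counts (1.49%) varied less, but these genes are of both transcript classes. Mycn had 0.744 counts per base. Among genes with 0.3 to 1 counts per base, the median coefficient of variation was 12.5% for those with 1 transcript and 22.5% for those with 2 or more. The slope of log2 count on log2 total was 0.251 for Mycn, against 0.955 for Myc, 1.02 for Mxi1 and 1.17 for Max. It was lower still for Mxd4 (0.172), and 0.572 for Mga and 0.578 for Mxd1. Mlx had 0.885, Mxd3 1.24 and Mnt 1.53. The correlation of the log2 normalized CPM of Mycn with log2 total was −0.785 over the 21 libraries, as a description. The part of depth in differences of the CPM of Mycn was not tested. In the comparison at day 6 after a single administration the totals were alike, at 22184885 to 26263228 for PBS and 23395821 to 27771296 for 5-FU.

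**Figure D2:**
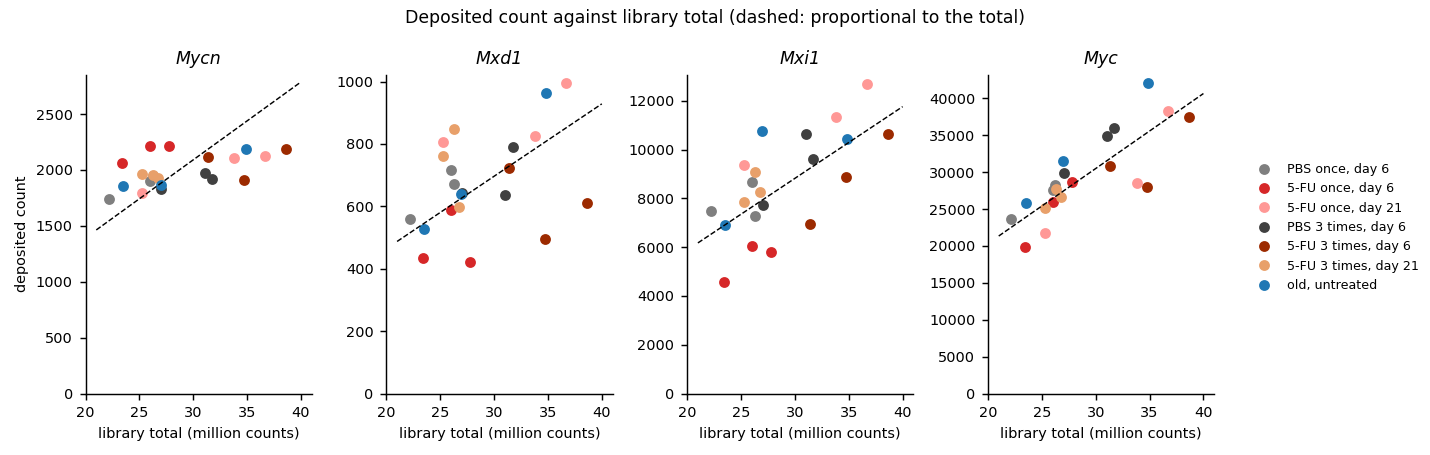
Deposited counts of Mycn, Mxd1, Mxi1 and Myc (vertical, from 0) against the library total in units of 1000000 counts (horizontal) for the 21 libraries, colored by group; the dashed line is a count in proportion to the total. The counts of Mycn stayed between 1741 and 2218 along the axis, whereas those of Myc followed the dashed line.

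Since ratios of 2 counts within a library need no scaling between libraries, Myc was also set against Mxi1, the member of the same transcript class that fell most. Mxi1 was chosen for its fall at day 6 after 5-FU once, so the ratio in that comparison restates this fall and is given as a description. The ratio of Myc to Mxi1 counts was 3.87, 3.18 and 3.16 in HSCs after PBS once and 4.35, 4.94 and 4.29 at day 6 after 5-FU once, with no overlap. The means were 3.40 ± 0.401 and 4.53 ± 0.358 (SD, n = 3). At day 21 after 5-FU once the ratio was 2.31, 3.03 and 2.51, below all 3 libraries of PBS once. After 3 administrations the day 6 libraries had 3.16, 4.43 and 3.52 and their controls 3.28, 3.73 and 3.87, which overlapped. At day 21 after 5-FU 3 times the ratios were 3.05 to 3.22, below the controls, and in old HSCs 2.92 to 4.04. The ratio of Mxi1 to Max was 1.55 to 2.49 after PBS once and 1.24 to 1.77 after 5-FU once, with overlap. The ratio of Myc to Max was 6.30 to 6.75 after PBS 3 times, 4.88 to 5.81 at day 6 after 5-FU 3 times and 7.33 to 7.77 in old HSCs. After PBS once it was 6.01 to 7.92, a range that held both the PBS 3 times and the old libraries, and at day 6 after 5-FU once it was 5.42 to 7.72.

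**Figure D3:**
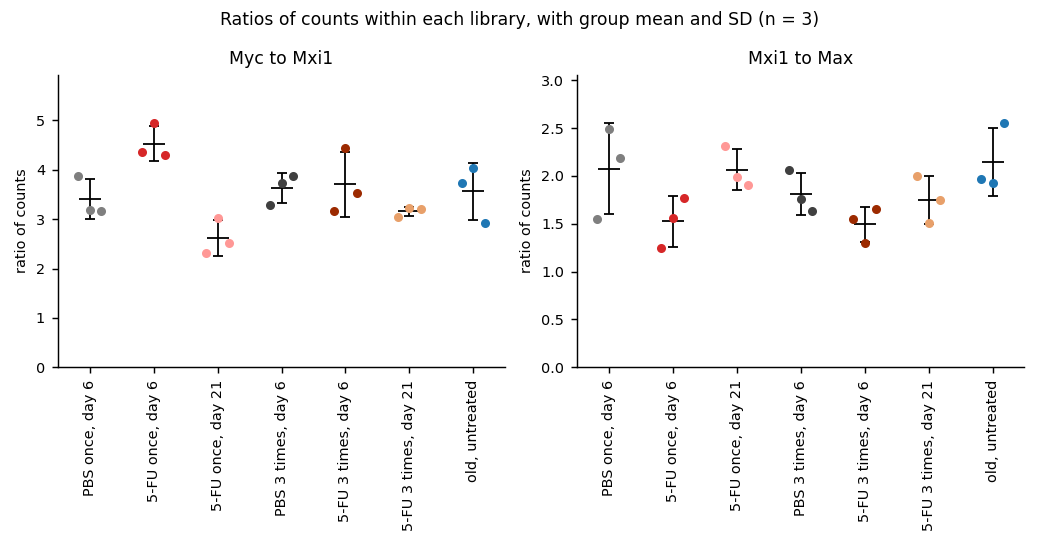
Ratio of the counts of Myc to Mxi1 (left) and of Mxi1 to Max (right) in each library by group (linear axes from 0); points are libraries, black lines and bars the group mean and SD (n = 3). The 3 libraries of 5-FU once at day 6 had ratios of Myc to Mxi1 of 4.29 to 4.94, above those of PBS once.

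After 3 administrations, 0 of the 10 members passed the test at day 6 against PBS 3 times, where 8.3% of all 12729 genes tested fell and 9.84% rose. None had an unadjusted p under 0.05 by edgeR, against 4189 of the 12729 genes tested. DESeq2 also called 0 members, against 3364 of the 12729 genes. Mxi1 had 273, 230.3 and 302 normalized CPM after 5-FU and 342, 299 and 275 after PBS, and the groups overlapped at a log2 fold change of −0.21 (95% interval −0.50 to 0.08). Mga was at 129, 101 and 122 against 145, 135 and 122 normalized CPM, with a log2 fold change of −0.21 (−0.48 to 0.06). The value for Mxd4 was −0.55 (−1.28 to 0.18), with 162, 163 and 91 counts after 5-FU and 176, 191 and 199 after PBS, groups that did not overlap in normalized CPM. The third library after 5-FU, the deepest of all 21 with 38649033 counts, had the fewest counts of Mxd4.

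Myc had 862, 1021 and 1064 normalized CPM at day 6 after 5-FU 3 times and 1122, 1115 and 1065 after PBS 3 times. The groups just failed to overlap, and the log2 fold change was −0.19 (95% interval −0.39 to 0.02, edgeR adjusted p = 0.19). Without a normalization factor it was −0.29 (adjusted p = 0.0487), but that scaling also moved the median over all genes tested to −0.11. Mxd3 was at 7.14 to 7.61 against 5.03 to 7.08 normalized CPM, without overlap (log2 fold change 0.31, 95% interval −0.12 to 0.74). Max was at 176 to 183 against 166 to 169.9 normalized CPM, also without overlap, with a log2 fold change of 0.07 (95% interval −0.08 to 0.22) whose sign changed without a normalization factor. Mycn, Mnt and Mlx had log2 fold changes between −0.011 and −0.00077, and the sign of each of these 3 changed under at least 1 alternative.

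Whether the effect of 5-FU differed between 3 administrations and 1 was tested as an interaction over the 12 libraries. Of the 10 members 0 passed, where 0.34% of the 13227 genes tested were higher and 0.31% lower, and 0 had an unadjusted p under 0.05. Of all genes tested, 1954 had an unadjusted p under 0.05. The difference in log2 fold change, 3 administrations minus 1, was 0.33 for Mxi1 (SE 0.17, edgeR adjusted p = 0.4) and 0.28 for Mga (SE 0.14, adjusted p = 0.39). The 95% intervals of these differences ran from −0.04 to 0.71 and from −0.03 to 0.59. The log2 fold changes of Mxi1 and Mga after a single administration were thus not shown to differ from those after 3. The suffix of the columns separates the single from the repeated schedule here too.

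**Figure D4:**
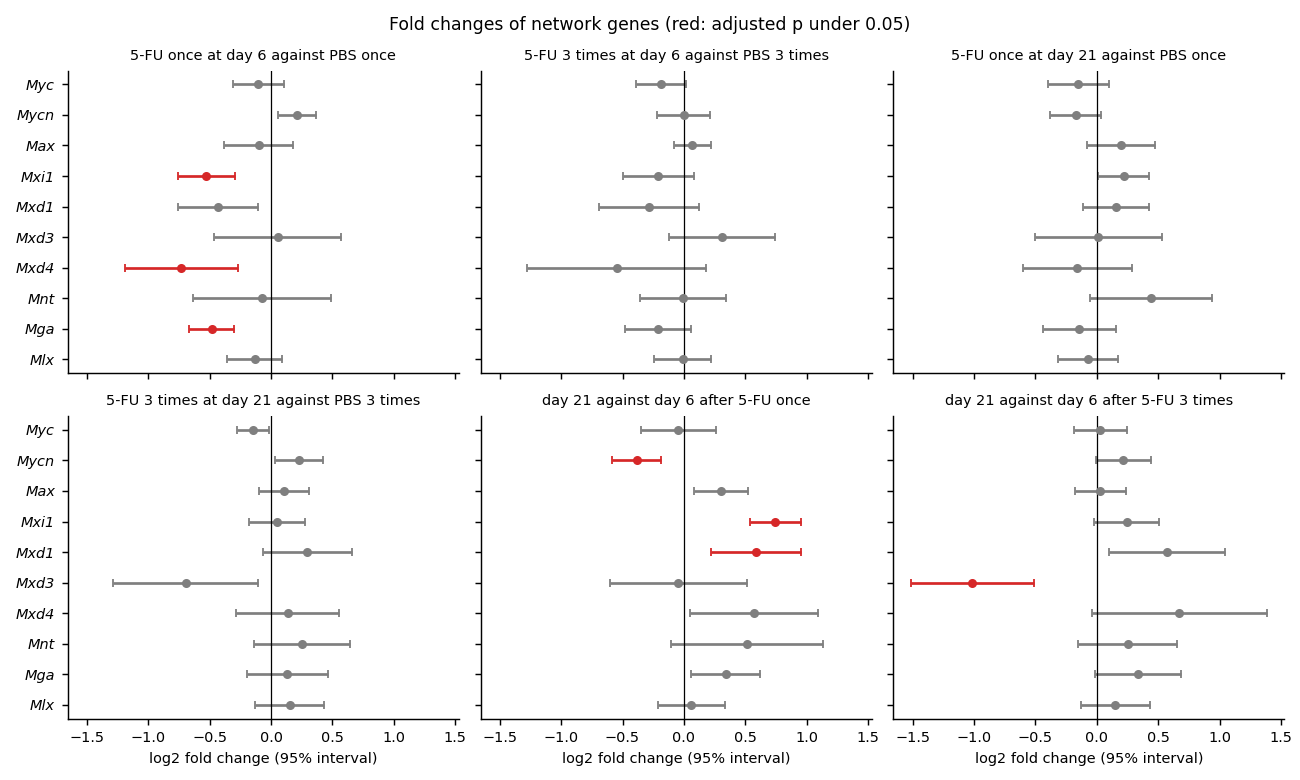
Log2 fold changes (horizontal) of the 10 members in 6 comparisons with 95% intervals from the quasi-likelihood fit of edgeR (3 libraries against 3); red points had an adjusted p under 0.05. Mxi1, Mxd4 and Mga were past the threshold at day 6 after 5-FU once, and none of the 10 was at day 21 against PBS, which was sampled at day 6.

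At day 21, 0 of the 10 members passed the test against the PBS group of the same schedule, which was sampled at day 6. Treatment and day of sampling therefore cannot be told apart in either schedule. For the single schedule the suffix of the columns is on the PBS libraries alone and cannot be told apart from the treatment. After a single administration 0.15% of the 12647 genes tested were lower than after PBS once and 0.0712% higher, and after 3 administrations the shares were 0.00792% and 0.0396% of 12632 genes. DESeq2 also called 0 members in both comparisons. At an unadjusted p under 0.05 there was 1 member after a single administration, Mxi1, against 1685 of the 12647 genes tested. Mxi1 had 367, 360.0 and 337 normalized CPM against 270.4, 324 and 320 in the controls. All 3 of its libraries lay above the controls, and the log2 fold change was 0.22 (SE 0.09, edgeR adjusted p = 0.359). After 3 administrations there were 3 such members, Myc at −0.15 (adjusted p = 0.324), Mycn at 0.23 (adjusted p = 0.302) and Mxd3 at −0.70 (adjusted p = 0.302). Of all 12632 genes tested there, 1725 had an unadjusted p under 0.05. Mxd3 had 3.03 to 3.999 normalized CPM there against 5.03 to 7.08 after PBS 3 times, with no overlap, from 77 to 109 counts per library.

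Between day 6 and day 21 after a single administration, 2 members rose and 1 fell, where 12.3% of the 12589 genes tested rose and 13.7% fell. These comparisons share the day 6 libraries with the comparisons against PBS. The day 6 libraries of this schedule carry the column suffix and the day 21 libraries do not, so day and suffix cannot be told apart, and the widened gate applied at day 6 alone. Mxi1 was at 192, 214.5 and 231 normalized CPM at day 6 and at 367, 360.0 and 337 at day 21, a log2 fold change of 0.75 (SE 0.09, edgeR adjusted p = 0.0022) that passed in all alternatives. Mxd1 was at 18.2, 15.6 and 22.5 at day 6 and 31.5, 28.2 and 24.5 at day 21 (0.59, SE 0.16, adjusted p = 0.0324). Its call was lost without the first or the second library of either day, with adjusted p of 0.0707 to 0.0955. Max, at 131 to 154 normalized CPM at day 6 and 159 to 181 at day 21, had a log2 fold change of 0.30 (adjusted p = 0.0542) and passed under 5 alternatives, among them DESeq2 and size factors by relative log expression.

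Mycn fell from 82.0 to 86.7 normalized CPM at day 6 to 60.3 to 70.1 at day 21 (log2 fold change −0.39, SE 0.09, edgeR adjusted p = 0.0183). Its deposited counts, however, were 2064, 2215 and 2218 at day 6 and 1796, 2122 and 2110 at day 21, which overlapped, while the totals rose from 23395821–27771296 to 25270496–36669644. The call was also lost without the second or the third library of day 21 and without any of the 3 libraries of day 6, at adjusted p of 0.0548 to 0.0621. The part of depth in this fall was not tested.

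After 3 administrations, 1 member fell between day 6 and day 21 and 0 rose, where 10.8% of the 12553 genes tested fell and 8.68% rose. The member was Mxd3, at 232, 230 and 268 counts at day 6 and 107, 109 and 77 counts at day 21, or 7.14 to 7.61 against 3.03 to 3.999 normalized CPM. The log2 fold change was −1.01 (SE 0.21, edgeR adjusted p = 0.0175), the largest of any member in any comparison between 2 groups. The call was lost without the second or the third day 6 library, with adjusted p of 0.0533 and 0.0602. Totals were 31358819 to 38649033 at day 6 and 25285301 to 26745138 at day 21. The slope of log2 count on log2 total was 1.24 for Mxd3 over the 21 libraries, above that of proportion, and the part of depth was not tested. Mxi1 had a log2 fold change of 0.24 (95% interval −0.02 to 0.51) over the same interval.

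Between the 2 control groups, PBS 3 times and PBS once, 0 of 10 members passed, where 0.00781% of the 12806 genes tested were higher and 0.00781% lower. Mga was at 145, 135 and 122 normalized CPM after PBS 3 times and 205, 183 and 174 after PBS once, with no overlap. Its log2 fold change of −0.48 (SE 0.10, edgeR adjusted p = 0.156) had the size of its fall after 5-FU once. With DESeq2 the adjusted p was 0.00048. The PBS once libraries carry the column suffix and the PBS 3 times libraries do not, so the suffix and the schedule cannot be told apart. The second member with an unadjusted p under 0.05 was Mycn (−0.21, adjusted p = 0.307), where the totals were 27023725 to 31724107 against 22184885 to 26263228. Of all 12806 genes tested, 1633 had an unadjusted p under 0.05. Mxi1 had means of 305 and 305 normalized CPM in the 2 control groups.

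In old HSCs, 0 of the 10 members passed the test against PBS 3 times, where 0.553% of the 12847 genes tested were higher and 0.444% lower, and 0 passed against PBS once, where the shares were 1.44% and 0.443% of 12855 genes. Both comparisons share the 3 old libraries, whose mice were untreated, and the column suffix separates PBS once from them. Myc was at 1077, 1222 and 1152 normalized CPM in old HSCs, the highest group mean of the 7 (1150.4 ± 72.3, SD, n = 3). Against PBS 3 times the log2 fold change of Myc was 0.05 (95% interval −0.10 to 0.21) and against PBS once 0.16 (0.01 to 0.31, edgeR adjusted p = 0.314). Mga, at 138 to 158 in old HSCs, was −0.34 against PBS once (adjusted p = 0.141, with DESeq2 0.0136) and 0.14 against PBS 3 times (adjusted p = 0.738).

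Mlxip, the glucose-sensing partner of MLX, fell at day 6 after 5-FU once. It had 120.0, 133 and 129.7 normalized CPM after PBS and 104, 94.3 and 101 after 5-FU, with no overlap (log2 fold change −0.37, SE 0.07, edgeR adjusted p = 0.0145). After 3 administrations the value was −0.25 (SE 0.10, adjusted p = 0.138). Txnip, an inhibitor of glucose uptake that MLX and MLXIP activate, fell by 0.89 on the log2 scale after both schedules (edgeR adjusted p = 0.00161 and 0.00163). Arrdc4, the second gene of that list, fell after 3 administrations, at −0.50 (adjusted p = 0.0487), and the list had 1 of 2 genes lower after a single one. Over all genes tested, 10.6% fell after 5-FU once and 8.3% after 3 times.

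Genes known as targets that MYC activates rose at day 6 while the level of Myc itself did not pass the test. Of 45 such genes in 3 lists, all tested, 29 rose and 0 fell after 5-FU once, with a median log2 fold change of 0.35 against −0.00056 over all genes tested. After 3 administrations 24 rose and 0 fell, with a median of 0.34 against −0.012. Normalized and tested within their transcript class, 34 and 29 rose and 0 fell. The background shares of genes that rose were the 11.5% and 9.84% given above. These lists and those below were chosen with earlier results of these data known, so their counts are given as a description. At day 21 against PBS, 0 of the 45 passed in either direction after either schedule, with medians of −0.091 and −0.011. Between day 6 and day 21, 34 fell after 5-FU once, where 13.7% of all 12589 genes tested fell. After 5-FU 3 times 27 fell, where 10.8% of all 12553 genes tested did.

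In the metabolism list 13 of 16 genes rose after 5-FU once and 12 of 16 after 3 administrations. Mthfd2, a mitochondrial enzyme of folate metabolism, rose by 1.10 and 1.49 on the log2 scale in the 2 comparisons. Nme1, a nucleoside diphosphate kinase, rose by 0.95 after 5-FU once (edgeR adjusted p = 0.00122), and Cad, which starts pyrimidine synthesis, rose by 1.15 after 5-FU 3 times (adjusted p = 0.00545). In the list of translation, chaperones and cell cycle 10 of 13 and 7 of 13 rose, led in both comparisons by Eif5a, a translation factor (0.57 and 0.63), and Hspd1, a mitochondrial chaperone (0.60 and 0.59). In the list of the nucleolus and ribosome biogenesis 6 of 16 and 5 of 16 rose. Npm1, a nucleolar chaperone, rose by 0.80 and Dkc1, a pseudouridine synthase, by 0.59 after 5-FU once, and Rrp12 and Nolc1 rose by 0.67 and 0.61 after 5-FU 3 times.

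Of 8 genes that MYC is known to repress, 7 were tested. After 5-FU once 4 fell and 1 rose, with a median log2 fold change of −0.62, and after 3 administrations 2 fell and 0 rose, with a median of −0.28. Of all genes tested 10.6% and 8.3% fell in the 2 comparisons. Ndrg1, a stress and differentiation gene, fell by 1.57 after 5-FU once and by 0.60 after 3 times. Gadd45a, a growth arrest gene, fell by 1.04 after 5-FU once, and Ndrg2 fell by 0.64 after 3 times. The gene that rose was Cdkn1a, which encodes the cell cycle inhibitor p21 and is also activated by p53, at 1.44 (SE 0.19, edgeR adjusted p = 0.00385).

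Transcripts of genes whose products the members recruit or depend on were counted in 4 lists, where 11.5% of all genes tested rose after 5-FU once and 9.84% after 3 times. Of 9 SIN3 corepressor genes, 1 rose after 5-FU once (Sap18, 0.38) and 0 after 3 administrations, a share near that of all genes. Of 9 PRC1.6 partners of MGA, 2 rose after 5-FU once and 3 after 3 times, in both with Tfdp1 (0.65 and 0.90) and Cbx3 (0.58 and 0.58) in the lead, of which Tfdp1 encodes the dimer partner of E2F factors. Among 12 cofactors of MYC, Actl6a rose (0.30) and Bptf fell (−0.28) after 5-FU once, whereas Kat2a (0.42) and Hcfc1 (0.40) rose after 3 times. Of 14 genes that set the stability of the MYC protein, 4 and 5 rose and 0 fell. Skp2, a ubiquitin ligase subunit, rose by 1.02 after 5-FU once, Aurka, the mitotic kinase, rose by 1.12 after 3 times, and Cip2a, an inhibitor of phosphatase 2A, rose by 0.65 and 1.53. At day 21 against PBS, 0 genes of these 4 lists passed in either schedule.

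**Figure D5:**
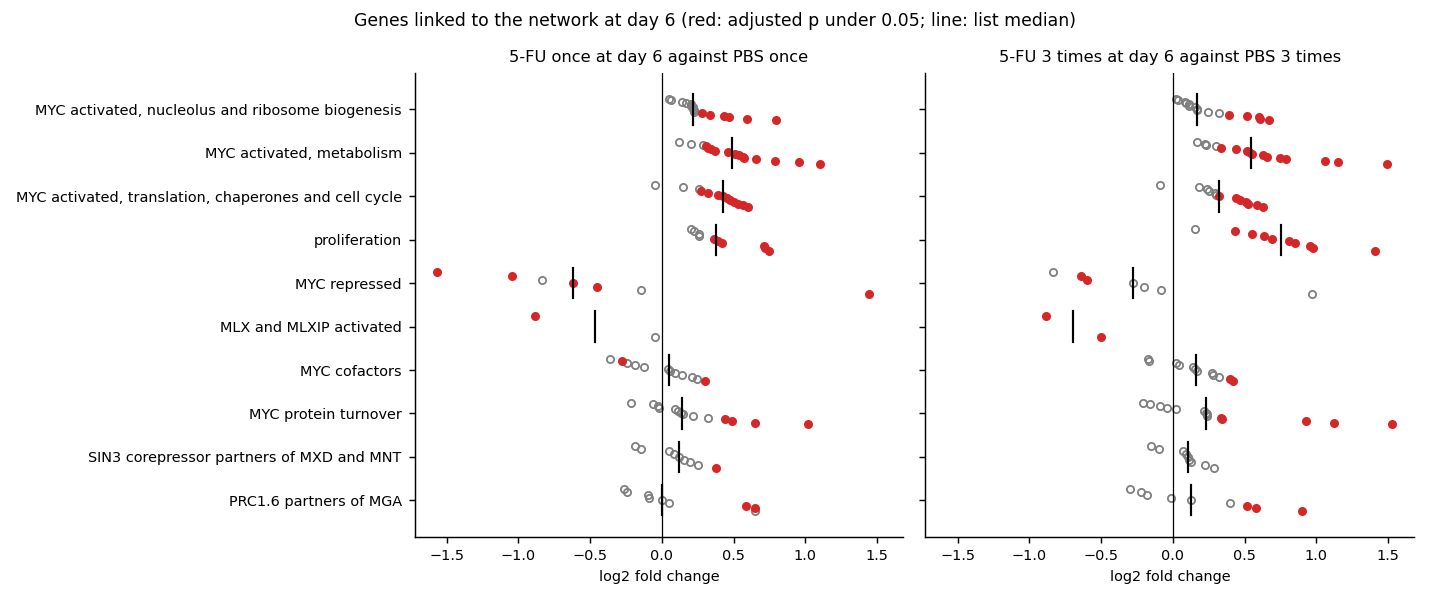
Log2 fold changes (horizontal) of genes linked to the network at day 6 after 5-FU once (left) and 3 times (right), by list; red points had an adjusted p under 0.05 by the quasi-likelihood test of edgeR, open points did not, and black lines are list medians. In the 3 lists of genes that MYC activates 29 and 24 of 45 points were red, all of them to the right of 0.

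Markers of proliferation and of other cell types moved in the same comparisons. Of 10 proliferation genes, 6 rose after 5-FU once and 9 after 5-FU 3 times, where 11.5% and 9.84% of all genes tested rose. Normalized and tested within transcript classes, 9 rose after either schedule. The summed level of 8 HSC markers was 3117 to 3261 normalized CPM at day 6 after 5-FU once and 3880 to 4282 after PBS once, with log2 fold changes of −0.86 for Kit, the receptor used in the gate, and 1.01 for Ly6a, which encodes Sca-1. That of 5 megakaryocyte markers was 34.1 to 43.3 against 113 to 137, of 8 myeloid markers 58.7 to 66.3 against 80.2 to 89.5, and of 4 stromal and endothelial markers 0.421 to 2.96 against 16.6 to 83.4 normalized CPM. After 3 administrations the sums were 2727 to 2812 against 3732 to 4075 for HSC markers and 80.5 to 86.4 against 116 to 129 for megakaryocyte markers. The stromal and endothelial sum went the other way there, at 14.5 to 28.5 against 0.0621 to 11.8, and the myeloid sum was 52.6 to 73.1 against 73.7 to 92.6 normalized CPM. Few of the 4 stromal and endothelial markers could be tested. Cxcl12 fell by 4.88 on the log2 scale after 5-FU once (edgeR adjusted p = 0.00462). Within transcript classes 1 of the 4 was tested there, and after 3 administrations 3 were tested and 0 passed. Of the 8 HSC markers 3 rose and 2 fell after 5-FU once, and 1 rose and 4 fell after 3 times. The part of the cell mixture, of the cell cycle and of the widened gate in the changes of the network genes was not tested.

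Across the 21 libraries, the genes most like a member in pattern were found by Pearson's r of log2(normalized CPM + 1) among 10490 genes with a mean of at least 5 CPM, as a description, since libraries of a group share their treatment. Mxi1 was closest to Slu7 (0.892), Hipk1 (0.888) and Stxbp2 (0.86). Mxd4 was closest to Ctsf (0.899), Chrnb1 (0.891) and Pik3ip1 (0.875), and Mxd1 to Sirt7 (0.873), Bet1l (0.856) and Tagap1 (0.847). Mga was nearest to Cic (0.831), Sfi1 (0.828) and Zc3h11a (0.824). For Mxd3 the genes were Fabp5 (0.813), Eif1a (0.778) and Pimreg (0.772), for Max Abi1 (0.786), Cbll1 (0.785) and Ffar2 (0.758), for Mnt Hoxb5 (0.775), Sall2 (0.774) and Nudt3 (0.761), and for Mlx Ppp2r3a (0.78), Tspyl2 (0.702) and Srr (0.685).

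Myc was closest to Cdcp1 (0.879), followed at a distance by Cc2d2a (0.721) and Exoc3l (0.721). The 3 genes nearest to Mycn, Zfp36l2 (0.916), Hnrnpu (0.909) and Arpc1b (0.908), had counts that varied by 6.87%, 8.32% and 5.96% over the libraries, and their log2 normalized CPM had correlations with log2 total of −0.863, −0.705 and −0.906, as that of Mycn did. Among the 45 pairs of members the highest r were 0.643 for Mxd1 with Mxd4 and 0.634 for Max with Mnt, and the lowest was −0.563 for Mnt with Mycn.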

How the data were processed

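Reads were aligned by the authors with TopHat 2.0.13 to mm10 with iGenomes annotation, and Cufflinks 2.2.1 is named for quantification. The authors deposited whole-number counts per gene symbol. Which program counted the reads, and how it treated strand and repeated alignments, is not given in the sources used here. The work was done in R 4.3.3 with edgeR 4.0.16. Low genes were removed by filterByExpr within a comparison, libraries were scaled by TMM, and differences were tested by the quasi-likelihood test with Benjamini-Hochberg adjustment over all genes kept, at a threshold of 0.05, on 6 libraries (12 for the interaction). Normalized CPM were scaled by TMM over the 21 libraries. Intervals are at 95% from the same fit. Promoter sequences are from RefSeq and transcript counts from its gene table. The fits were checked on simulated counts with known changes. Replicates are from separate experiments according to the study. Between 2 libraries of the same group the variance of counts was 16.8 to 37.2 times that of read sampling, so no library was a copy. Floors cover counting error only. The members and gene lists were chosen with earlier results of these data known. Named genes are the members, Mycl, Mlxip and Mlxipl, the 2 largest rises and the 2 largest falls among called genes of each list, and the 3 genes closest to each member. Alternatives were other scalings and filters, DESeq2 1.42.0, a fit of all 21 libraries, a replicate block, each library left out and, added after the data were seen, normalization within transcript classes.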

Additional observations from a re-analysis of the deposited data

How the results depend on the processing

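Of 100 log2 fold changes of members, recomputed 1460 times in all, 1363 kept their direction and side of the threshold, 18 lost and 21 gained significance and 58 changed sign, 46 of these when a library was left out and 0 of a called one. The falls of Mxi1 and Mga at day 6 after 5-FU once and the rise of Mxi1 between day 6 and day 21 after 5-FU once passed in all alternatives. With DESeq2 5 members passed at day 6 after 5-FU once, where 3685 of all 12759 genes passed. Between day 6 and day 21 after 5-FU once 6 passed, where 4164 of 12589 genes did. For PBS 3 times and old HSCs against PBS once 1 member each passed. There DESeq2 called 547 of 12806 and 824 of 12855 genes. Normalized within transcript classes, an alternative chosen after seeing the data, 5 passed at day 6 after 5-FU once, where 3384 of 12753 genes passed. Without a normalization factor 1 passed at day 6 after 5-FU 3 times and 2 between day 6 and day 21 after 5-FU 3 times, and in a single fit of all 21 libraries 3 passed there. Over all genes, these settings called 2269 of 12729, 2678 of 12553 and 3279 of 13571. With a library left out, the members past the threshold were 1 to 3 between day 6 and day 21 after 5-FU once and 0 to 1 after 5-FU 3 times. The causes were not tested.

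Over all genes tested DESeq2 called 725 and 592 at day 21 after 5-FU once and 3 times where edgeR called 28 and 6, 547 against 2 between the PBS groups, 569 against 128 and 824 against 242 for old HSCs against PBS 3 times and once, and 715 against 86 for the interaction. Without a normalization factor 1127 of 2750 calls were higher at day 6 after 5-FU once (1470 of 2827 with it), 807 of 2269 after 3 times (1253 of 2310), and 1701 of 2678 between day 6 and day 21 after 3 times (1089 of 2450), where the median over all genes moved to 0.12.

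The sign of small log2 fold changes depended on the setting. At day 6 after 5-FU 3 times Mycn was 0.0029 with all genes of at least 1 count, 0.0067 within its class and 0.021 in the fit of 21 libraries, where Mnt was 0.011 and Mlx 0.010, and Max was −0.033 without a normalization factor. Without that factor Mxd3 was −0.055 at day 21 after 5-FU once, Mxi1 −0.024 between the PBS groups, and Max −0.015 and Mxd4 −0.0098 in old HSCs against PBS once. Within its class Mxd3 was 0.031 between day 6 and day 21 after 5-FU once and Mxi1 −0.025 between the PBS groups.

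With a library left out, log2 fold changes that changed sign ranged at day 6 after 5-FU once from −0.20 to 0.017 for Max, −0.096 to 0.18 for Mxd3 and −0.30 to 0.087 for Mnt. At day 6 after 5-FU 3 times they ranged from −0.069 to 0.057 for Mycn, −0.033 to 0.023 for Mnt and −0.075 to 0.037 for Mlx. At day 21 they were −0.047 to 0.11 for Mxd3 and −0.14 to 0.017 for Mlx after 5-FU once, and −0.019 to 0.14 for Mxi1 after 3 times. Between day 6 and day 21 they were −0.17 to 0.036 for Myc, −0.17 to 0.11 for Mxd3 and −0.022 to 0.15 for Mlx after 5-FU once, and −0.057 to 0.088 for Myc and −0.049 to 0.079 for Max after 3 times. Between the PBS groups Mxi1 ranged from −0.083 to 0.071. For old HSCs against PBS 3 times the ranges were −0.0050 to 0.19 for Mxd1, −0.0040 to 0.25 for Mxd3, −0.046 to 0.19 for Mxi1 and −0.31 to 0.044 for Mnt. Against PBS once they were −0.075 to 0.13 for Max, −0.16 to 0.033 for Mxd1, −0.025 to 0.12 for Mxd4, −0.054 to 0.19 for Mxi1 and −0.099 to 0.0027 for Mlx. For the interaction they were −0.16 to 0.0048 for Myc, −0.050 to 0.31 for Mxd1 and −0.082 to 0.30 for Mnt.

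Same-numbered libraries did not deviate together (correlations of −0.0499 to 0.0578), so the numbers were not taken as pairs. With the replicate number as a block, 2 members instead of 3 passed at day 6 after 5-FU once, Mxd4 being lost (adjusted p = 0.0778), and 2 instead of 3 between day 6 and day 21, Mxd1 being lost (adjusted p = 0.0718). With the block 1 member passed between day 6 and day 21 after 5-FU 3 times and 0 in the other comparisons, as without it. Groups of 3 libraries, and counts of at most 268 for Mxd3, 249 for Mxd4 and 283 for Mnt, limit what could be detected. The p-values set a difference between groups against the spread between these libraries, which is estimated with the use of all tested genes.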
